A study of Mus musculus with 16 samples.

Results

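Mitochondrial ribosomal protein genes encode the proteins of the ribosome that works inside mitochondria. They were taken as every gene symbol of the deposited embryonic stem (ES) cell count tables that begins with Mrpl or Mrps and a digit, which gave 76 of 23420 genes, 47 Mrpl and 29 Mrps. All 76 passed the filter on low counts that left 14664 genes for testing, and all 76 matched a RefSeq gene record. The symbol alone decided membership, although the family was picked for description with earlier results of these data known.

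The mitochondrial ribosome translates only the few messenger RNAs made from mitochondrial DNA, which encode core subunits of the respiratory chain and of ATP synthase. Its own proteins are encoded in the nucleus, made in the cytosol and imported. Many have a counterpart in bacterial ribosomes, and others are found only in mitochondria. The factors NRF1, GABPA (an ETS factor) and YY1 are known to act at promoters of nuclear genes for mitochondrial proteins.

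The RNA-seq libraries came from J1 mouse ES cells (strain background 129S4/SvJae, passage 36, harvested on day 3), a line grown without feeders in 2i and LIF, the additions that hold ES cells in a naive state. The 4 groups of 2 libraries were cells given doxycycline with A-MYB expressed (Dox+A-MYB cells), cells given doxycycline (Dox cells), cells with A-MYB expressed (A-MYB cells), and cells given neither (control cells). All 4 groups carried the same transgenes, Tn(dCas9-VPR/RLTR10B2-gRNA-DsRed). These encode a nuclease-dead Cas9 fused to the transcriptional activator VPR and a guide RNA that directs it to RLTR10B2, repeats left by endogenous retroviruses. Doxycycline was used at 1 µg/ml, and it and A-MYB expression were induced on days 1 and 2. A-MYB, encoded by Mybl1, is the transcription factor best known for switching on genes of meiosis in male germ cells. No group received doxycycline without the activator or with another guide, so the drug's own effect cannot be told apart from the activator's. Each library came from the RNA of a culture well, and the labels do not say whether the wells were separate experiments, so the p-values measure only the spread between these libraries. In spermatocytes, H3K27ac peak lists of 2 wild-type and 2 A-myb mutant libraries were also read.

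Libraries held between 26995317 and 33771487 reads assigned to genes. Mybl1 read 19.9 and 16.6 CPM (reads scaled to a common library size) in Dox+A-MYB cells, 10.99 and 10.2 CPM in Dox cells, 22.0 and 17.8 CPM in A-MYB cells, and 8.38 and 6.91 CPM in control cells, so both groups labelled with A-MYB lay above the other two. Whether reads of the introduced A-MYB count under Mybl1 is not stated. Libraries of Dox+A-MYB cells differed from the others. They had 17602 and 17554 genes detected, against 16132 and 16027 in control cells, and 9.43% and 8.80% of reads assigned to no gene, against 7.28% and 7.34% in control cells. The summed level of 8 ES cell markers was 4250 to 4540 CPM in Dox+A-MYB cells, 7010 to 7020 CPM in Dox cells, 6480 to 6640 CPM in A-MYB cells, and 6760 to 6930 CPM in control cells. Of these 8 markers, 7 fell in Dox+A-MYB cells against A-MYB cells and 7 fell against Dox cells, beside 30.4% and 28.4% of all tested genes. The sums of 8 fibroblast markers stayed between 8.99 and 22.6 CPM in all libraries, and those of 6 markers of testis somatic cells between 0.999 and 2.61 CPM. Dcn, which encodes the matrix protein decorin, was at 0 in both libraries of the Dox, A-MYB and control cells. Lum and Postn were at 0 in both of the Dox and control cells and Col3a1 in both of the Dox cells. In Dox+A-MYB cells Dcn had 10 and 6 reads, Lum 7 and 12, Postn 0 and 1, and Col3a1 36 and 10. Pdgfrb was lowest there, at 5.23 and 6.23 CPM, against 16.8 and 16.7 CPM in control cells. So was Thy1, at 1.61 and 1.19 CPM, against 3.46 and 2.91 CPM. Of the 4 fibroblast markers tested, 1 rose and 2 fell in Dox+A-MYB against A-MYB cells, beside 28.5% and 30.4% of all tested genes. Cyp17a1 and Hsd3b6, of testis Leydig cells, were at 0 in both libraries of the Dox, A-MYB and control cells, and had 2 and 1 reads (Cyp17a1) and 1 and 0 reads (Hsd3b6) in Dox+A-MYB cells. Among the other testis somatic markers, Myh11 had 33 and 46 reads in Dox+A-MYB cells and 7 and 2 in Dox cells. It had 5 and 7 in A-MYB cells and 4 and 9 in control cells. Of the 4 testis somatic markers tested, 1 rose and none fell in Dox+A-MYB against A-MYB cells. The part of these differences in the results below was not tested. In such bulk RNA, fewer cells of a type and less RNA per cell cannot be told apart.

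Promoter windows were available for 67 of the 76 genes, from 250 bases before to 50 after the start in a RefSeq table of build GRCm38.p6. Windows were searched on both strands, and a gene counted if any of its windows held the letters. Mrpl48 had 4 windows, Mrpl2 had 3 and Mrps16 had 2. The NRF1 letters, GCGCA and GCGC with any base between them, lay in windows of 17.9% of these genes (12 of 67), against 7.17% of 17491 protein-coding genes. The core of ETS sites, CCGGAAG, lay in 35.8% (24 of 67), against 12.9%. The YY1 letters AAGATGGCG lay in 11.9% (8 of 67), against 2.14%. The E-box CACGTG, bound by MYC and related factors, lay in 7.46%, against 8.91%, and TTTGAA, the letters of the cell-cycle element CHR, in 17.9%, against 18.5%. The MYB site letters ACCGTTA were in no window of the 67 genes and in windows of 0.703% of the protein-coding genes. These matches describe letters only.

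Stretches directly before the start are shown for 4 genes that recur below, written 5′ to 3′ on the gene's strand, with the matched letters in capitals. Mrps26 rose in Dox+A-MYB cells and holds an ETS match, on the other strand, that begins 14 bases before the start. Mrpl12 is among the genes with the most reads and holds an NRF1 match, on the other strand, that begins 81 bases before the start. Mrpl34 fell in all 4 comparisons and holds an ETS match that begins 37 bases before the start. The stretch of Mrps12, which also fell in all 4, is the whole of the 146 bases between its start and that of Sars2 on the other strand, and it holds none of the 6 sets of letters. The ETS match counted for Mrps12 lies elsewhere in its longer window. Mrps26 also has an NRF1 match in its longer window that its printed stretch does not hold. The regions are chr2:130563627-130563756 (plus strand) for Mrps26, chr11:120484507-120484636 (plus strand) for Mrpl12, chr8:71464796-71464925 (plus strand) for Mrpl34 and chr7:28741822-28741967 (minus strand) for Mrps12.
Mrps26: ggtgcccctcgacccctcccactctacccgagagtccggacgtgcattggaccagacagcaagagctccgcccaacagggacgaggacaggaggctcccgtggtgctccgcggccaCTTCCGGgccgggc
Mrpl12: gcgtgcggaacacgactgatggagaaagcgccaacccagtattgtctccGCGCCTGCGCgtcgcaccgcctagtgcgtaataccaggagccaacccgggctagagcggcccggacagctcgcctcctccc
Mrpl34: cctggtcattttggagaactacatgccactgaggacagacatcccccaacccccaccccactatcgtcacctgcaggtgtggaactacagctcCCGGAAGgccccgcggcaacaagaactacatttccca
Mrps12: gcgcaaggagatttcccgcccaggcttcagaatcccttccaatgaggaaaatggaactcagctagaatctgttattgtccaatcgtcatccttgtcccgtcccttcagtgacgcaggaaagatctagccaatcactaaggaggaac

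Summed over the family, the level differed little between groups, while single members moved apart. The summed level of the 76 genes was 5690 and 6082 CPM in Dox+A-MYB cells, 5803 and 5953 CPM in Dox cells, 5466 and 5792 CPM in A-MYB cells, and 6100 and 5845 CPM in control cells. These ranges overlap between Dox+A-MYB cells and each other group. CPM here are scaled by TMM, which sets the bulk of genes level between libraries. As a share of all gene reads, without that scaling, the family took 0.637% and 0.677% in Dox+A-MYB cells, 0.568% and 0.583% in Dox cells, 0.530% and 0.557% in A-MYB cells, and 0.576% and 0.557% in control cells. By that measure the Dox+A-MYB libraries were the highest. Scaled by total counts, the median log2 fold change of all tested genes was 0.22 in Dox+A-MYB against A-MYB cells and 0.195 in Dox+A-MYB against Dox cells, against 0.010 and 0.005 with TMM, so the family's direction as a block depends on the scaling, and changes below are relative to the bulk of genes.

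No member changed by 2-fold or more in any of the 4 comparisons, whereas 18.7% of all tested genes did in Dox+A-MYB against A-MYB cells. The log2 fold changes of the members ranged from -0.72 to 0.69 there, with an SD across members of 0.283, against 1.044 across all tested genes. A narrower spread than that of all tested genes was not particular to the members. In the same comparison cytosolic ribosomal protein genes had an SD of 0.268, with 2.35% at 2-fold or more. Genes for subunits of oxidative phosphorylation had an SD of 0.383, with 3.85% at 2-fold or more. Of the 4 members with the most reads, 2 passed in no comparison. Mrpl45, a protein at the exit of the peptide tunnel, read 229.9 and 231.2 CPM in Dox+A-MYB cells, 231.5 and 233.9 CPM in Dox cells, 231.3 and 230.4 CPM in A-MYB cells, and 247.8 and 236.9 CPM in control cells. Mrpl15, a core protein with a bacterial counterpart, read 204.9 and 204.6 CPM in Dox+A-MYB cells, 212.3 and 212.4 CPM in Dox cells, 209.0 and 214.4 CPM in A-MYB cells, and 227.8 and 210.1 CPM in control cells. They were among 23 members that passed in none of the 4, a number not counted over all tested genes. The other 2 were Mrpl18, described with its neighbour below, and Mrpl12, of the stalk that receives translation factors. Mrpl12 read 128.2 and 167.1 CPM in Dox+A-MYB cells, 155.3 and 159.1 CPM in Dox cells, 138.4 and 154.8 CPM in A-MYB cells, and 196.5 and 187.6 CPM in control cells, the highest group, and it fell by 0.29 ± 0.1 in Dox and by 0.39 ± 0.1 in A-MYB against control cells (log2, SE). Reads per gene also grow with transcript length, for which no value was at hand, so levels were not compared between genes.

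**Figure D1:**
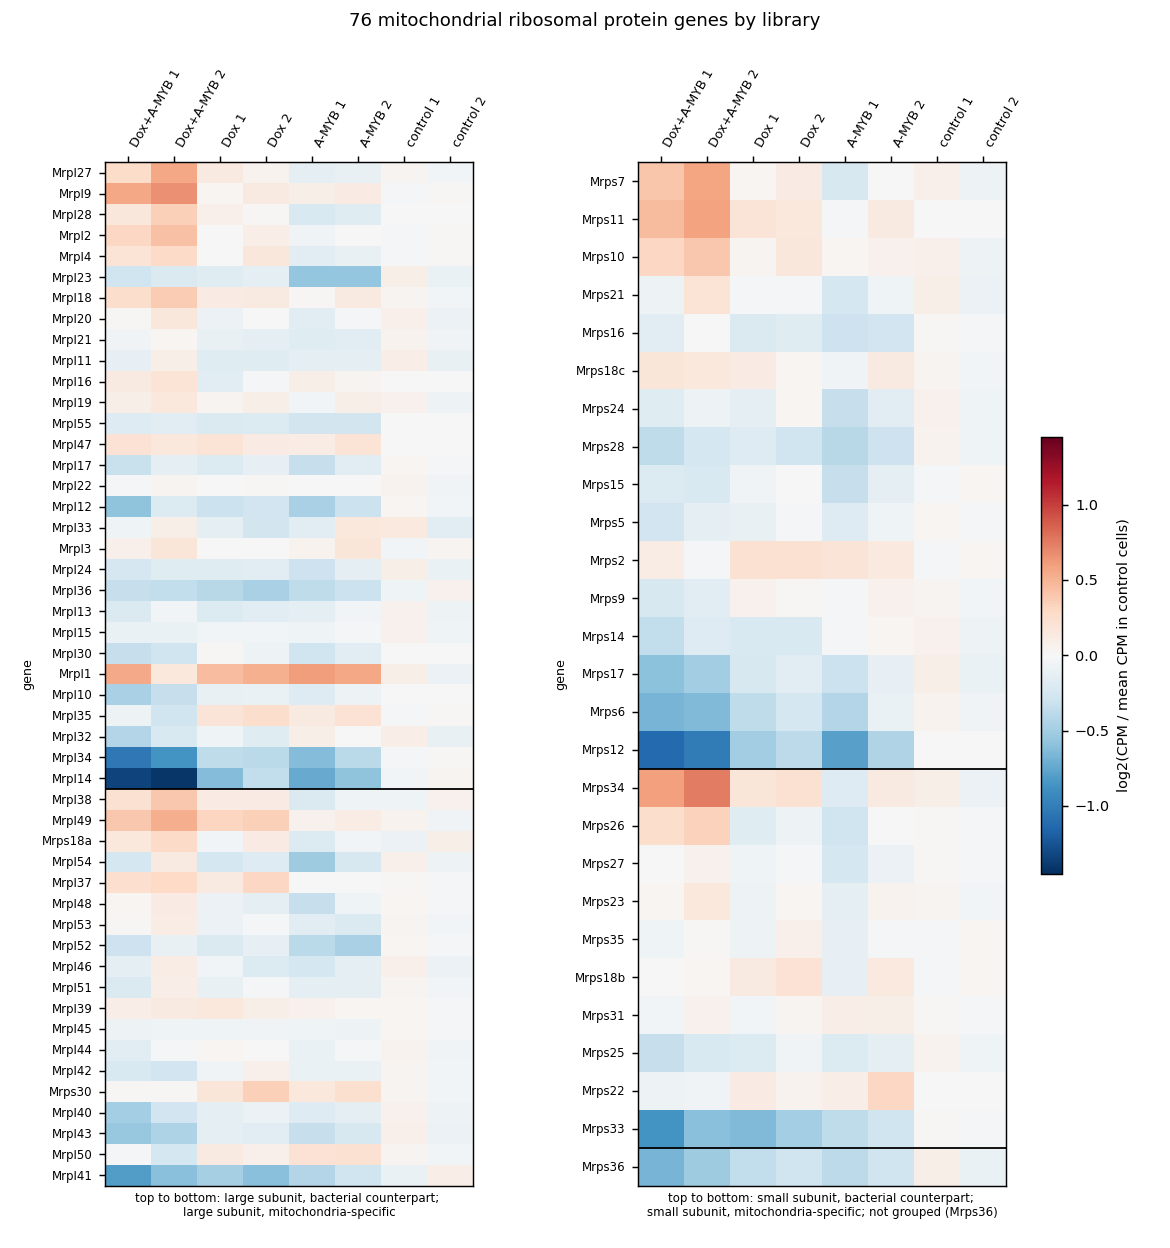
Each of the 76 genes (rows) in each of the 8 ES cell libraries (columns), coloured by the log2 ratio of its CPM to its mean CPM in control cells, with the large subunit on the left and the small subunit on the right. Most rows are pale, while Mrpl14, Mrpl34 and Mrps12 are darkest blue in the Dox+A-MYB libraries and Mrps34 is darkest red there.

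Doxycycline with A-MYB present, Dox+A-MYB against A-MYB cells, moved the most members, in both directions. With edgeR's quasi-likelihood test, Benjamini-Hochberg adjusted over all 14664 genes at 0.05, 22 members rose and 19 fell, which is 53.9% of the 76, against 58.9% of all tested genes (28.5% higher and 30.4% lower). The share called was therefore close to that of genes at large, and the median log2 fold change was 0.028, against 0.010 over all genes. Scaled by total counts, 48 rose and 3 fell, against 60.1% of all genes (42.3% higher and 17.8% lower). Of the 22 that rose, 16 also passed under every alternative run, and of the 19 that fell, only Mrpl14, Mrpl34 and Mrps12 did. Leaving out A-MYB replicate 2 lowered the 19 to 9.

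The genes that rose furthest were in both subunits. Mrps34 (GRCm38.p6 chr17:24895120-24896289), a small-subunit protein found only in mitochondrial ribosomes, read 55.4 and 61.2 CPM in Dox+A-MYB cells, 41.3 and 42.5 CPM in Dox cells, 32.2 and 40.1 CPM in A-MYB cells, and 38.7 and 34.4 CPM in control cells. Both Dox+A-MYB libraries lay above all 6 others. Its log2 fold change was 0.69 ± 0.0955 (SE; edgeR adjusted p = 1.373e-06), a 1.61-fold increase. Mrps7 (chr11:115604140-115608036), in the head of the small subunit, read 128.7 and 144.2 CPM in Dox+A-MYB cells, 99.3 and 105.3 CPM in Dox cells, 82.9 and 96.6 CPM in A-MYB cells, and 102.1 and 92.2 CPM in control cells. Again both Dox+A-MYB libraries were above the rest, and the log2 fold change was 0.60 ± 0.0779 (SE; edgeR adjusted p = 5.237e-07). Mrpl27, the counterpart of a bacterial protein next to the site where peptide bonds form, averaged 50.5 ± 7.23 CPM in Dox+A-MYB cells and 34.7 ± 0.316 CPM in A-MYB cells (SD, n = 2 each), a log2 fold change of 0.54 ± 0.0916 (SE). Mrpl9 rose by 0.51 ± 0.0701 and Mrps11, on the platform of the small subunit, by 0.47 ± 0.0812 (log2, SE).

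The genes that fell furthest included core proteins. Mrpl14 (chr17:45685722-45698495), whose bacterial counterpart L14 lies where the subunits meet, read 11.2 and 10.7 CPM in Dox+A-MYB cells, 18.3 and 22.1 CPM in Dox cells, 17.1 and 18.8 CPM in A-MYB cells, and 27.5 and 29.0 CPM in control cells. The groups do not overlap except for Dox and A-MYB cells, with Dox+A-MYB cells lowest and control cells highest. The log2 fold change was -0.72 ± 0.117 (SE; edgeR adjusted p = 9.918e-06). Mrps12 (chr7:28739641-28741821), the counterpart of the bacterial S12 at the decoding centre, read 23.9 and 26.0 CPM in Dox+A-MYB cells, 36.9 and 40.2 CPM in Dox cells, 30.2 and 38.5 CPM in A-MYB cells, and 52.5 and 52.1 CPM in control cells. The order of its groups was the same, and the log2 fold change was -0.46 ± 0.101 (SE; edgeR adjusted p = 0.0003667). Mrpl34 (chr8:71464926-71465753), a large-subunit protein with a bacterial counterpart, read 33.3 and 37.4 CPM in Dox+A-MYB cells, 52.9 and 51.8 CPM in Dox cells, 43.8 and 52.0 CPM in A-MYB cells, and 67.2 and 68.8 CPM in control cells, a log2 fold change of -0.44 ± 0.0878 (SE). Mrps6 (-0.41 ± 0.123) and Mrps33 (-0.40 ± 0.107) also fell (log2, SE), but neither call remained under scaling by total counts. Mrps6 also lost it without A-MYB replicate 2 (edgeR adjusted p at most 0.184 over the alternatives), and Mrps33 without Dox+A-MYB replicate 1 (at most 0.1299).

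**Figure D2:**
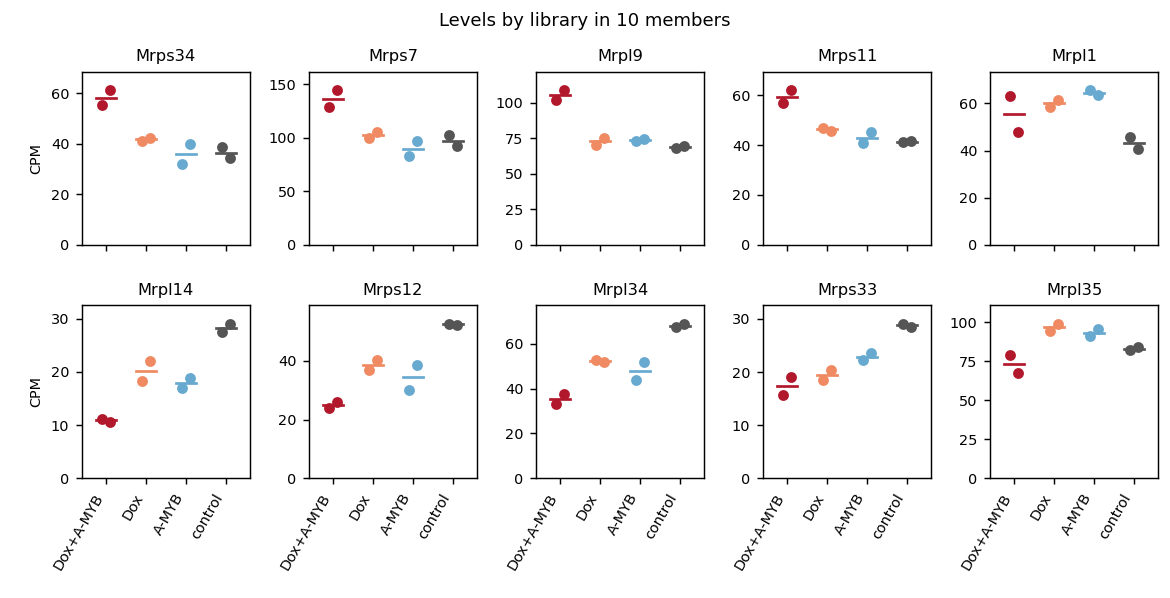
CPM of 10 named genes in each library of the 4 groups, with dots for libraries and lines for the mean of 2. Mrps34, Mrps7, Mrpl9 and Mrps11 are highest in Dox+A-MYB cells, Mrpl14, Mrps12 and Mrpl34 are lowest there and highest in control cells, and Mrpl1 is lowest in control cells.

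Set beside 28.5% of all tested genes higher and 30.4% lower, members moved in both directions in the 4 classes made by subunit and origin. In this comparison 7 of 30 large-subunit proteins with a bacterial counterpart rose and 5 fell, and of 19 large-subunit proteins found only in mitochondria 8 rose and 6 fell. Of 16 small-subunit proteins with a bacterial counterpart 4 rose and 5 fell, and of 10 found only in mitochondria 3 rose and 2 fell. Their medians were 0.014, 0.086, 0.034 and 0.020 (log2), beside 0.010 over all tested genes. The same groups, scaled by total counts, had 20 higher and 2 lower, 13 and 0, 9 and 1, and 6 and 0, beside 42.3% and 17.8% of all tested genes. Among 7 proteins of the central protuberance, a landmark of the large subunit, 4 rose and 1 fell, or 6 and 0 scaled by total counts. Among 3 of the stalk that receives translation factors, Mrpl10 fell by 0.28 ± 0.0679, while Mrpl12 (0.01 ± 0.1) and Mrpl11 (0.12 ± 0.0749) did not pass (log2, SE). By total counts 1 of these 3 was higher and none lower. The ratio of reads summed over Mrps symbols to reads summed over Mrpl symbols was 0.484 and 0.478 in Dox+A-MYB cells and 0.480 and 0.498 in A-MYB cells, and 0.480 and 0.493 in Dox cells, against 0.477 and 0.482 in control cells. This ratio between symbols thus stayed within 0.477 to 0.498. It is not exactly that of the subunits, since Mrps18a and Mrps30 are large-subunit proteins and Mrps36 was placed in neither subunit.

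Unequal change of members of the same subunit shows as a ratio inside each library, which no scaling can alter. Reads of Mrps7 divided by reads of Mrps12 came to 5.38 and 5.55 in Dox+A-MYB cells, 2.69 and 2.62 in Dox cells, 2.75 and 2.51 in A-MYB cells, and 1.95 and 1.77 in control cells. The pair was chosen after its values were seen, so the ratio is a description. The Dox and A-MYB cells overlapped and lay between the other groups.

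**Figure D3:**
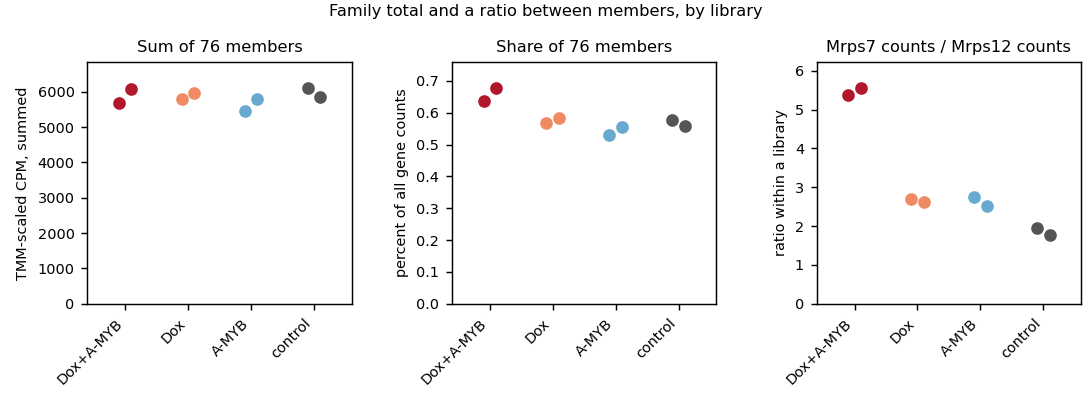
Summed TMM-scaled CPM of the 76 genes (left), their percentage of all gene reads (middle) and the ratio of Mrps7 to Mrps12 reads (right) in each library, with axes from 0. The sums of Dox+A-MYB cells overlap those of each other group, while the ratio is 5.38 and 5.55 in Dox+A-MYB cells and 1.95 and 1.77 in control cells.

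Without A-MYB, doxycycline moved fewer members. In Dox against control cells 6 rose and 11 fell, 22.4% of the 76, against 32.2% of all tested genes (17.9% higher and 14.3% lower), with a median log2 fold change of -0.042 against 0.029. With total counts as the scale, 11 rose and 7 fell, against 33.9% of all genes (22.1% higher and 11.8% lower). The counts rest on single libraries. The 6 became 2 without Dox replicate 2 and 3 without either control replicate, and the 11 became 5 without Dox replicate 1, 7 without Dox replicate 2 and 6 without control replicate 1. The 11 became 17 with DESeq2's size factors (22.4%, against 16.1% of all tested genes). With only the libraries of this comparison they became 22, for which the share of all tested genes was not counted.

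Mrpl1 (chr5:96209498-96266727), the counterpart of the bacterial protein of the L1 stalk, rose furthest. It read 63.0 and 48.0 CPM in Dox+A-MYB cells, 58.6 and 61.6 CPM in Dox cells, 65.6 and 63.6 CPM in A-MYB cells, and 45.7 and 40.5 CPM in control cells. The control cells were the lowest group, and the Dox+A-MYB libraries differed most from each other. Its log2 fold change in Dox against control cells was 0.48 ± 0.101 (SE; edgeR adjusted p = 0.001178). Mrpl49, found only in mitochondrial ribosomes, read 159.4 and 163.4 CPM in Dox cells and 133.0 and 124.5 CPM in control cells, a log2 fold change of 0.33 ± 0.0635 (SE; edgeR adjusted p = 0.0003288). These 2 calls held under every alternative. Mrps30, which despite its name is a large-subunit protein, rose by 0.26 ± 0.0694, Mrps2 by 0.22 ± 0.0625 and Mrpl35 by 0.22 ± 0.0743 (log2, SE), but each lost its call when at least 1 library was left out. For Mrps30 that was Dox replicate 2 or control replicate 2, for Mrps2 either Dox replicate or control replicate 1, and for Mrpl35 any of the 4.

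Among the 11 that fell, Mrps33, in the head of the small subunit, read 18.5 and 20.4 CPM in Dox cells and 29.1 and 28.6 CPM in control cells. The log2 fold change was -0.57 ± 0.106 (SE; edgeR adjusted p = 0.0002154). Mrpl41 fell by 0.54 ± 0.12, Mrpl14 by 0.48 ± 0.11, Mrps12 by 0.44 ± 0.0971 and Mrpl36, a small core protein with a bacterial counterpart, by 0.44 ± 0.0787 (log2, SE). The call of Mrpl14 was lost without Dox replicate 1 (edgeR adjusted p = 0.07007). Calls of Mrpl34, Mrpl36, Mrpl41, Mrps12 and Mrps33 held under every alternative.

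A-MYB added to doxycycline, Dox+A-MYB against Dox cells, raised 12 members and lowered 16, which is 36.8% of the 76, against 55.2% of all tested genes (26.8% higher and 28.4% lower). The median log2 fold change was 0.000, against 0.005. Under scaling by total counts, 40 rose and 4 fell, against 55.7% of all genes (39.5% higher and 16.2% lower). This comparison shares its Dox+A-MYB libraries with the first, so the same genes leading both is no separate support. The 12 became 20 without Dox+A-MYB replicate 1 and 6 without Dox+A-MYB replicate 2.

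Mrpl9 read 101.8 and 108.8 CPM in Dox+A-MYB cells and 70.3 and 75.3 CPM in Dox cells, a log2 fold change of 0.53 ± 0.0699 (SE; edgeR adjusted p = 5.221e-07). Mrps34 rose by 0.48 ± 0.0943, Mrps26 by 0.42 ± 0.0863, Mrps7 by 0.42 ± 0.0773 and Mrps11 by 0.36 ± 0.0806 (log2, SE). All 5 calls, and that of Mrpl2, held under every alternative. Mrpl14 fell to 0.54 times its level in Dox cells, a log2 fold change of -0.89 ± 0.115 (SE; edgeR adjusted p = 4.414e-07), the furthest of any member in any of the 4 comparisons. Mrps12 fell by 0.63 ± 0.0998, Mrpl34 by 0.57 ± 0.0872, Mrpl35 by 0.40 ± 0.0742 and Mrpl43 by 0.36 ± 0.0761 (log2, SE), of which Mrpl43 lost its call under scaling by total counts (edgeR adjusted p = 0.0649).

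A-MYB alone, A-MYB against control cells, mostly lowered the members it moved. Here 4 rose and 21 fell, 32.9% of the 76, against 34.7% of all tested genes (19.5% higher and 15.2% lower), and the median log2 fold change was -0.124, against -0.005. With scaling by total counts, 6 rose and 18 fell, against 34.0% of all genes (20.9% higher and 13.1% lower). The 4 became 2 without A-MYB replicate 1 and 1 without A-MYB replicate 2 or either control replicate, and also 1 with DESeq2's size factors or Wald test. The 21 became 8 without A-MYB replicate 1 and 10 without control replicate 1. The control libraries are the same as in the comparison of Dox with control cells.

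Mrpl14 read 17.1 and 18.8 CPM in A-MYB cells and 27.5 and 29.0 CPM in control cells, a log2 fold change of -0.65 ± 0.111 (SE; edgeR adjusted p = 6.315e-05). Mrps12 fell by 0.60 ± 0.0981. Mrpl23, at the exit of the peptide tunnel, read 22.2 and 22.1 CPM in A-MYB cells and 34.8 and 30.7 CPM in control cells, a log2 fold change of -0.56 ± 0.095 (SE; edgeR adjusted p = 6.037e-05). Mrpl34 fell by 0.51 ± 0.0862 and Mrpl52 by 0.43 ± 0.0798 (log2, SE). The calls of these 5 genes held under every alternative. Mrpl1 rose by 0.58 ± 0.101 (log2, SE; edgeR adjusted p = 0.0001627) and held too. Mrpl50 (0.21 ± 0.0751), Mrps30 (0.19 ± 0.0697) and Mrps2 (0.17 ± 0.0627) passed, but each lost its call when any 1 of the 4 libraries was left out, and with DESeq2's size factors and Wald test.

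Mrpl14, Mrpl34, Mrps12 and Mrps36 were the members that passed as lower in all 4 comparisons. The comparisons share their groups, and the share of all tested genes lower in all 4 was not counted. Mrps36 carries the name of a small-subunit protein but is now known as a component of the alpha-ketoglutarate dehydrogenase complex of the citric acid cycle. It read 20.7 and 23.1 CPM in Dox+A-MYB cells, 25.8 and 27.1 CPM in Dox cells, 25.4 and 27.1 CPM in A-MYB cells, and 35.1 and 30.9 CPM in control cells. Its log2 fold changes lay between -0.33 and -0.26, and none of its 4 calls held under every alternative.

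The effect of doxycycline differed with and without A-MYB for 25 of the 76 members (32.9%, against 40.9% of all tested genes) by the interaction term, the log2 fold change of Dox+A-MYB against A-MYB cells minus that of Dox against control cells. It was higher with A-MYB for 18 and lower for 7, against 16.4% and 24.5% of all genes. The median over the 76 was 0.127, against -0.003 over all tested genes. By total counts it was higher for 37 and lower for 4, against 41.2% of all genes (25.5% higher and 15.6% lower). The 18 became 28 without Dox+A-MYB replicate 1, 11 without Dox+A-MYB replicate 2 and 10 without Dox replicate 1.

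Mrps26, a small-subunit protein found only in mitochondria, read 63.5 and 66.9 CPM in Dox+A-MYB cells, 46.8 and 50.4 CPM in Dox cells, 43.3 and 53.0 CPM in A-MYB cells, and 53.5 and 52.6 CPM in control cells. The Dox+A-MYB libraries lay above the other 6, which ranged from 43.3 to 53.5 CPM. The interaction was 0.56 ± 0.123 (log2, SE; edgeR adjusted p = 0.0007321). Mrpl54 had 0.54 ± 0.165 and Mrps7 0.53 ± 0.11 (log2, SE), but Mrpl54 lost its call without Dox replicate 1 or control replicate 1 (edgeR adjusted p at most 0.06849). Mrpl1 had the largest negative interaction, -0.70 ± 0.141 (log2, SE; edgeR adjusted p = 0.0005495): it was higher with either treatment than in control cells, and in Dox+A-MYB against A-MYB cells it had -0.22 ± 0.0987 (edgeR adjusted p = 0.06355). Mrpl35 (-0.57 ± 0.105) and Mrpl50 (-0.44 ± 0.106) had log2 fold changes of 0.22 and 0.10 in Dox against control cells, of which the 0.10 of Mrpl50 did not pass, and of -0.35 and -0.34 in Dox+A-MYB against A-MYB cells, which both passed.

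**Figure D4:**
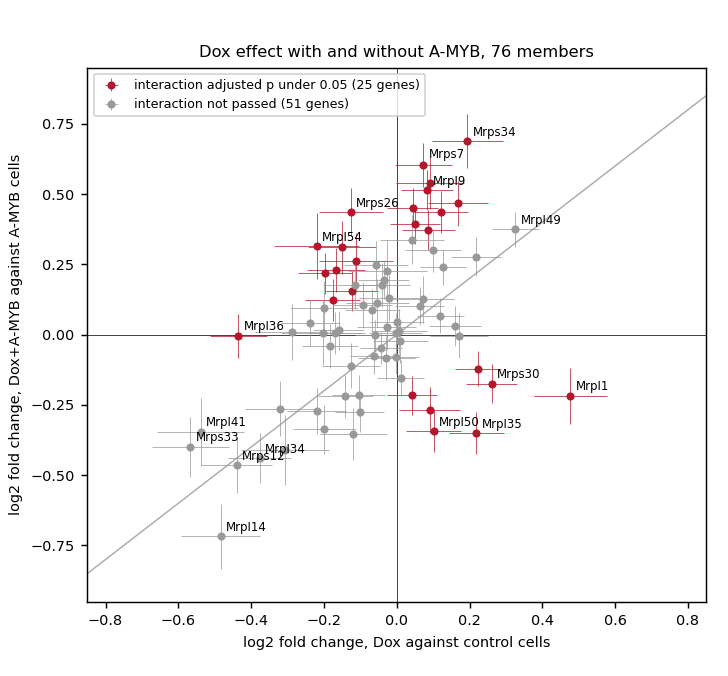
The log2 fold change of each of the 76 genes in Dox+A-MYB against A-MYB cells (vertical) and in Dox against control cells (horizontal), with bars of 1 SE and a diagonal where both are equal. The 25 genes with a passed interaction are red, with Mrps26, Mrpl54 and Mrps7 above the diagonal and Mrpl1, Mrpl35 and Mrpl50 below it, while Mrpl14, Mrps12 and Mrpl34 are grey.

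Genes for the cytosolic ribosome and for oxidative phosphorylation, the machinery that the mitochondrial ribosome supplies with subunits, were set beside the members. Of 85 tested cytosolic ribosomal protein genes 3 rose and 51 fell in Dox+A-MYB against A-MYB cells, none rose and 68 fell in Dox against control cells, 2 rose and 54 fell in Dox+A-MYB against Dox cells, and none rose and 68 fell in A-MYB against control cells. Their medians were -0.182, -0.253, -0.218 and -0.269 (log2), in that order. Scaled by total counts the count of higher and lower cytosolic genes was 12 and 20 in Dox+A-MYB against A-MYB cells, with a median of 0.028, and 11 and 17 in Dox+A-MYB against Dox cells, with a median of -0.028. It was 2 and 61 in Dox against control cells and 0 and 66 in A-MYB against control cells. Many of these genes have near-identical pseudogenes, between which the counting could have split reads. Of 78 tested nuclear genes for subunits of oxidative phosphorylation 9 rose and 27 fell, 1 rose and 42 fell, 2 rose and 24 fell, and none rose and 47 fell in the same comparisons. Scaled by total counts 38 rose and 10 fell, 1 rose and 38 fell, 28 rose and 10 fell, and 1 rose and 39 fell, so that both comparisons with Dox+A-MYB cells turned to mostly higher. Of all tested genes 28.5% rose and 30.4% fell, 17.9% and 14.3%, 26.8% and 28.4%, and 19.5% and 15.2% in these comparisons, in that order. Scaled by total counts these shares were 42.3% and 17.8%, 22.1% and 11.8%, 39.5% and 16.2%, and 20.9% and 13.1%. The difference between these lists and the members was not tested. Genes encoded by mitochondrial DNA, which the mitochondrial ribosome translates, were not analysed here.

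**Figure D5:**
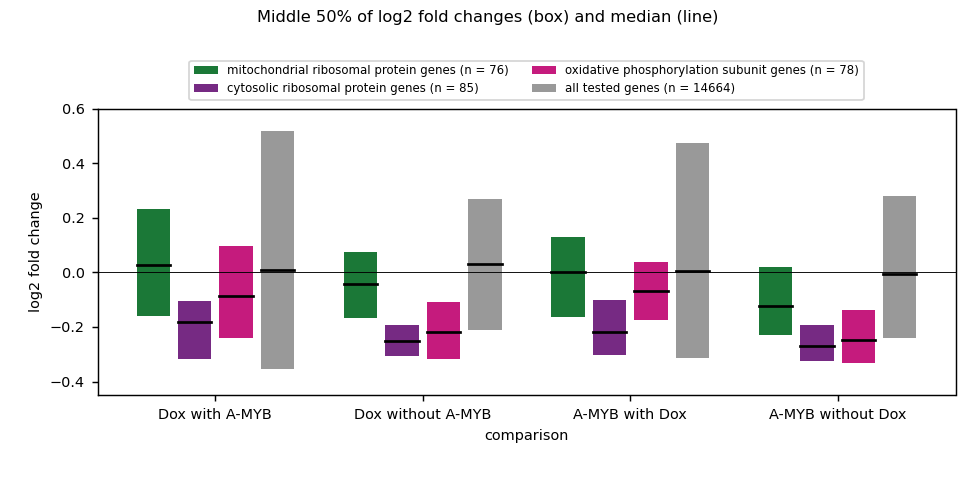
The middle 50% (boxes) and the median (lines) of log2 fold changes of 4 gene lists in Dox+A-MYB against A-MYB cells (Dox with A-MYB), Dox against control cells (Dox without A-MYB), Dox+A-MYB against Dox cells (A-MYB with Dox) and A-MYB against control cells (A-MYB without Dox). With TMM scaling, the medians of the mitochondrial ribosomal protein genes are 0.028, -0.042, 0.000 and -0.124, above those of cytosolic ribosomal proteins (-0.182, -0.253, -0.218 and -0.269) and of oxidative phosphorylation subunits. The boxes of all of these lists are narrower than that of all tested genes.

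Of 7 genes for subunits of the mitochondrial ribosome with other symbols, 5 rose and 1 fell in Dox+A-MYB against A-MYB cells, and 6 rose and none fell when scaled by total counts. The shares of all tested genes there were 28.5% higher and 30.4% lower, or 42.3% and 17.8% scaled by total counts. Mrp63, the gene for MRPL57, read 34.05 and 35.8 CPM in Dox+A-MYB cells, 28.9 and 33.2 CPM in Dox cells, 24.2 and 29.0 CPM in A-MYB cells, and 32.9 and 31.0 CPM in control cells. Its log2 fold change there was 0.39 ± 0.0987 (SE; edgeR adjusted p = 0.001504). Chchd1 (0.30 ± 0.0776) and Aurkaip1 (0.27 ± 0.0757) also rose, and Dap3, a GTP-binding protein of the small subunit, fell by 0.17 ± 0.068 (log2, SE).

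Of 22 genes for factors that assemble the mitochondrial ribosome, 13 rose and 1 fell in Dox+A-MYB against A-MYB cells, with a median log2 fold change of 0.300. By total counts 17 rose and none fell. Of all tested genes 28.5% rose and 30.4% fell there, or 42.3% and 17.8% by total counts. Gtpbp5, a GTPase that acts late in assembly of the large subunit, read 41.3 and 43.9 CPM in Dox+A-MYB cells, 26.98 and 26.6 CPM in Dox cells, 22.8 and 25.2 CPM in A-MYB cells, and 24.7 and 22.4 CPM in control cells. The Dox+A-MYB libraries lay well above the other 6, and the log2 fold change was 0.83 ± 0.0926 (SE; edgeR adjusted p = 3.347e-08). Rpusd4, which makes pseudouridine in the large ribosomal RNA, rose by 0.64 ± 0.0723 and Mettl17, needed for the small subunit, by 0.78 ± 0.0984 (log2, SE). In Dox against control cells 5 of the 22 rose and none fell, beside 17.9% and 14.3% of all tested genes. By total counts it was 8 and 0, beside 22.1% and 11.8%. In Dox+A-MYB against Dox cells 10 rose and 1 fell, beside 26.8% and 28.4% of all tested genes. By total counts it was 17 and 0, beside 39.5% and 16.2%. In A-MYB against control cells 5 rose and 3 fell on either scale, beside 19.5% and 15.2% of all tested genes, or 20.9% and 13.1% by total counts.

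Factors that run translation in mitochondria were split in the same comparison, with 4 of 12 higher and 3 lower, or 8 and 1 scaled by total counts. Of all tested genes 28.5% were higher and 30.4% lower in that comparison, or 42.3% and 17.8% scaled by total counts. Mtrf1l, a release factor, rose by 0.91 ± 0.151 and Mtif3, an initiation factor, by 0.44 ± 0.0976, whereas Tufm, the elongation factor that brings transfer RNAs to the ribosome, fell by 0.40 ± 0.0631 (log2, SE). Of 13 genes for replication and transcription of mitochondrial DNA 2 rose and 4 fell, or 5 and 1 scaled by total counts, and Polg2, the accessory subunit of the mitochondrial DNA polymerase, rose by 1.20 ± 0.121 (log2, SE). Of 12 mitochondrial chaperones and proteases 1 rose and 6 fell, or 4 and 6 scaled by total counts. Hspd1, the chaperonin HSP60, read 319.6 and 316.0 CPM in Dox+A-MYB cells, 772.8 and 774.9 CPM in Dox cells, 835.9 and 805.0 CPM in A-MYB cells, and 1048 and 949.4 CPM in control cells, a log2 fold change of -1.37 ± 0.0581 (SE; edgeR adjusted p = 3.977e-16).

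Of 9 genes for regulators of this gene class, 1 rose and 6 fell in Dox+A-MYB against A-MYB cells, beside 28.5% and 30.4% of all tested genes. Scaled by total counts it was 2 and 5, beside 42.3% and 17.8%. Ppargc1a, with few reads, had the largest increase of the list, 4.08 (log2). It had 52 and 33 reads in Dox+A-MYB cells, 4 and 2 in Dox cells, 2 and 2 in A-MYB cells, and 0 and 0 in control cells. Mycn, the form of MYC that is abundant in ES cells, read 51.2 and 58.1 CPM in Dox+A-MYB cells, 115.0 and 112.5 CPM in Dox cells, 95.7 and 106.7 CPM in A-MYB cells, and 124.2 and 119.5 CPM in control cells, a log2 fold change of -0.89 ± 0.0743 (SE; edgeR adjusted p = 2.034e-10). Gabpa fell by 0.62 ± 0.0616, Yy1 by 0.68 ± 0.0717 and Nrf1 by 0.31 ± 0.0674 (log2, SE). In A-MYB against control cells 2 of the 9 rose and 2 fell, beside 19.5% and 15.2% of all tested genes. By total counts it was also 2 and 2, beside 20.9% and 13.1%. Gabpa rose there by 0.39 ± 0.0616 and Yy1 by 0.33 ± 0.0715 (log2, SE). Mycn, with the values above, was lower in A-MYB than in control cells. So was Esrra, at 14.9 and 17.8 CPM in A-MYB cells and 21.9 and 21.1 CPM in control cells. A part for these changes in those of the members was not tested.

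Many members share a start region with a neighbour. Of the 67 members with a promoter window, 25 (37.3%) had a start on the opposite strand, pointing away, within 1000 bases, against 13.1% of protein-coding genes with a window. Of 22 such pairs with both genes tested, both passed in 10 in Dox+A-MYB against A-MYB cells, 5 in the same direction and 5 in opposite directions. Of all tested genes 58.9% passed there, 28.5% higher and 30.4% lower. Pairs of other genes were not counted, so these numbers are a description only. The opposite pairs were Mrps12 and Sars2, Mrpl18 and Tcp1, Mrpl40 and Hira, Mrpl49 and Fau, and Mrpl41 and Pnpla7. Of these members, Mrps12, Mrpl18 and Mrpl49 kept their call under every alternative, but Mrpl40 and Mrpl41 did not. Pairs with the same and with opposite directions numbered 1 and 2 in Dox against control cells and 3 and 2 in Dox+A-MYB against Dox cells. In A-MYB against control cells they numbered 1 and 0. Of all tested genes 32.2%, 55.2% and 34.7% passed in these comparisons, in that order. The library kit keeps strand, but the setting used in counting is not known, so reads of overlapping neighbours may be shared.

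Sars2 encodes the mitochondrial seryl-tRNA synthetase, and its start lies 147 bases from that of Mrps12, at the other end of the stretch printed above. Sars2 read 63.9 and 62.7 CPM in Dox+A-MYB cells, 54.8 and 50.7 CPM in Dox cells, 46.5 and 50.05 CPM in A-MYB cells, and 44.9 and 43.9 CPM in control cells. It was thus highest where Mrps12 was lowest. Its log2 fold change in Dox+A-MYB against A-MYB cells was 0.39 ± 0.0779 (SE; edgeR adjusted p = 0.0001288), beside -0.46 for Mrps12, and in Dox against control cells 0.25 ± 0.0791 (SE; edgeR adjusted p = 0.01732), beside -0.44. Mrpl18, a large-subunit protein of the central protuberance, read 172.6 and 186.4 CPM in Dox+A-MYB cells and 146.4 and 157.8 CPM in A-MYB cells, a log2 fold change of 0.24 ± 0.0628 (SE). Tcp1, a subunit of the cytosolic chaperonin that starts 238 bases away, read 605.0 and 531.7 CPM in Dox+A-MYB cells and 821.5 and 809.7 CPM in A-MYB cells, a log2 fold change of -0.52 ± 0.0591 (SE; edgeR adjusted p = 4.197e-08). Mrpl46 and Mrps11, which are both members, start 42 bases apart, and Mrps11 rose by 0.47 ± 0.0812 while Mrpl46 had 0.18 ± 0.0878 and did not pass (log2, SE).

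In pachytene spermatocytes, meiotic male germ cells of C57BL/6J mice 8 to 12 weeks old, the deposited H3K27ac peak lists held few start sites of any gene. H3K27ac, acetylation of histone H3 at lysine 27, marks active promoters and enhancers. The 2 lists of A-myb mutant (repro9/repro9) mice held 22397 and 21269 peaks, which covered the start of 0.433% and 0.403% of 27025 genes, against 1.80% and 0.947% for the 29042 and 24130 peaks of the wild-type lists. Among the members only Mrpl41 had a peak over its start, in 1 wild-type list, with a fold enrichment of 4.68 as given by the authors. These lists therefore say little about the start sites of the members.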

How the data were processed

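Members and related lists were chosen with earlier results of these data known. The ES cell files deposited by the authors hold raw counts of reads per gene symbol and 5 special lines, 17.2% to 19.5% of reads, which were left out. Per the submitters' processing notes, the tools were bcl2fastq 2.20.0, HISAT2 2.1.0, HTSeq, Bowtie2 2.3.3.1 and MACS 1.4.2, with build mm10; settings and roles are not given in the sources used here. The deposited peak lists give tag counts, a score, which was not used, and fold enrichment, a ratio computed by the authors. The input libraries were not analysed here.

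Counts were filtered with filterByExpr, scaled by TMM and fitted with edgeR 4.0.16 (glmQLFit, robust; R 4.3.3, limma 3.58.1) in 1 model of 4 groups with 4 residual degrees of freedom. Contrasts were tested two-sided by glmQLFTest, and p-values were Benjamini-Hochberg adjusted over 14664 genes, with 0.05 as the threshold. The SE was taken from the fold change and the F statistic (log2 value over the root of F). Alternatives were DESeq2 size factors, total counts, no filter, the DESeq2 1.42.0 Wald test, a replicate block, only the libraries of a contrast, and each library left out. The fit was tested on simulated counts.

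Named per contrast were the 5 members that rose and the 5 that fell furthest among those passed with groups that do not overlap, 3 each way for the interaction, the 4 with the most reads, and up to 3 genes per related list by p. The ratio of Mrps7 to Mrps12, the neighbours of members, Nrf1, Ppargc1a, Esrra, Dap3, the stalk genes, Mrps36, Mrpl2 and Mrpl46 were named after their values were seen. So were the single markers of fibroblasts and testis somatic cells. Promoters and neighbours were read from RefSeq tables of GRCm38.p6. Replicates within a group differed by 5.41 to 13.7 times counting noise (chi-square per degree of freedom over genes), so none were merged. Depth was alike between libraries, so counting error was small beside that spread.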

Additional observations from a re-analysis of the deposited data

Results flagged for a closer look

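For 25 members the effect of doxycycline with A-MYB expressed differed from the effect without it, by the interaction term of edgeR's model (adjusted p under 0.05 over all tested genes). These were 32.9% of the 76, a smaller share than the 40.9% of all tested genes (16.4% higher and 24.5% lower). The values are the log2 fold change of Dox+A-MYB against A-MYB cells minus that of Dox against control cells. It was positive for Mrps26 (0.562), Mrpl54 (0.535), Mrps7 (0.53), Mrps34 (0.495), Mrpl23 (0.46), Mrpl27 (0.45), Mrpl9 (0.43), Mrpl36 (0.43), Mrps16 (0.42), Mrpl28 (0.41), Mrpl52 (0.40), Mrpl48 (0.37), Mrpl2 (0.34), Mrpl38 (0.315), Mrpl11 (0.301), Mrps11 (0.299), Mrpl4 (0.285) and Mrpl21 (0.28). It was negative for Mrpl1 (-0.695), Mrpl35 (-0.57), Mrpl50 (-0.44), Mrps30 (-0.44), Mrps22 (-0.36), Mrps2 (-0.345) and Mrps9 (-0.26). Of the 18 positive and 7 negative calls, 9 and 4 held under every alternative, among them Mrps26, Mrps7, Mrps34, Mrpl9, Mrpl23, Mrpl28, Mrpl36, Mrpl52 and Mrps16, and Mrpl1, Mrpl35, Mrpl50 and Mrps30.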

How the results depend on the processing

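No log2 fold change of a named member that passed changed sign under the alternatives, but some medians did: scaled by total counts, for example, that of the members in Dox against control cells was 0.002, against -0.042 with TMM. Those of cytosolic ribosomal protein genes in Dox+A-MYB against A-MYB cells (0.028, against -0.182) and of oxidative phosphorylation genes in Dox+A-MYB against A-MYB cells (0.122, against -0.088) and against Dox cells (0.121, against -0.069) did too. Scaled by total counts, members higher and lower were 48 and 3 in Dox+A-MYB against A-MYB cells, 11 and 7 in Dox against control cells, 40 and 4 in Dox+A-MYB against Dox cells, 6 and 18 in A-MYB against control cells, and 37 and 4 for the interaction. DESeq2's size factors gave 17 lower members in Dox against control cells (22.4%, against 16.1% of all tested genes). They gave 1 higher in A-MYB against control cells (1.32%, against 18.1% of all tested genes). DESeq2's Wald test also gave 1 higher there. With only the libraries of the contrast, 22 were lower in Dox against control cells. Shares of all tested genes were counted only with TMM, total counts and DESeq2's size factors, not under the other alternatives. Leaving out 1 library at a time gave 16 to 28 higher and 9 to 20 lower in Dox+A-MYB against A-MYB cells, 2 to 4 and 5 to 13 in Dox against control cells, 6 to 20 and 11 to 20 in Dox+A-MYB against Dox cells, 1 to 2 and 8 to 27 in A-MYB against control cells, and 10 to 28 and 5 to 7 for the interaction. Where a left-out library leaves 1 in a group, that library is assumed to vary like the other groups. Of 468 values of named members under the alternatives, 431 stayed on the same side of the threshold and 37 lost their call. Beyond the construction of each alternative, the cause of these shifts was not tested. Same-numbered replicates did not deviate together over all tested genes (6 pairs, r -0.0269 to 0.0843). With 2 libraries per group this cannot show whether the wells were set up in pairs. With a replicate block, members higher and lower were 23 and 20, 6 and 13, 14 and 16, 4 and 23, and 22 and 7 for the interaction, in the order above. Counting a peak within 1000 bases of a start, the wild-type lists held 2 and 1 members and the A-myb mutant lists 0 and 1.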
